A study of Panax japonicus with 5 samples.

Results

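Acetyl-CoA C-acetyltransferase (AACT) and hydroxymethylglutaryl-CoA synthase (HMGS) catalyse the entry into the mevalonate pathway, by which plants make the isoprene units of sterols and of triterpene saponins such as the ginsenosides of Panax. AACT joins a pair of acetyl-CoA molecules to acetoacetyl-CoA, HMGS adds a further acetyl-CoA to give 3-hydroxy-3-methylglutaryl-CoA (HMG-CoA), and HMG-CoA reductase (HMGR) then forms mevalonate. Acetoacetyl-CoA is made from a metabolite that many pathways share, and HMG-CoA can also be cleaved by HMG-CoA lyase, an enzyme of leucine breakdown. The levels of 6 unigenes of this entry, of 135235 unigenes in all, are described here in 5 tissues of Panax japonicus, a medicinal plant with a rhizome. A unigene is a Trinity gene identifier, and its value is the sum over its contigs.

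The unigenes were taken by their label, except TR24831|c0_g2, which was taken by its values. TR54322|c1_g1, TR54322|c1_g2 and TR61952|c0_g1 carry the label AACT, and TR51183|c0_g1 and TR59102|c0_g1 the label HMGS, in the study's own heat map of 28 backbone unigenes. TR24831|c0_g2 has no label there. It was added because its deposited values are those that a list of the study prints under the name TR61952|c0_g1, so the name and the values of the third AACT unigene do not belong together in that list. In the study's KEGG annotation, the contig of TR24831|c0_g2 is listed under acetyl-CoA C-acetyltransferase and also under another acyltransferase, so its identity as AACT was left unsettled, and it was kept out of the AACT sum unless stated. The 6 unigenes hold 11 contigs. No sequence of them was used here.

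The libraries were made from leaf, flower, secondary root (secRoot), old rhizome (rhizome_O, from bud scars far from the stem) and young rhizome (rhizome_Y, from the first bud scar below the stem). By the study's account, all came from 1 plant aged 7 years that grew outdoors in a garden, with no treatment named. Each tissue has 1 library. There is thus no replicate, no test between tissues was possible, and each interval below is a 95% interval of counting error alone, which leaves out the variation between plants and between RNA preparations. All ratios to rhizome_Y share that library, and the level of a transcript per cell cannot be told apart from the share of the cells that make it. The libraries held between 2403221 counts in flower and 4920387 counts in secRoot.

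The leaf library stood apart from the other 4 over the whole assembly, and this touches each result on leaf. Of 16352 unigenes with at least 100 counts in at least 1 library, 9175 were at least 20-fold lower in leaf than in the mean of the other 4 tissues, which is 56.1% of them, and 6893 were at least 20-fold higher, which is 42.2%. Only 284 lay between these limits. With TMM or median-of-ratios scaling over the 5 libraries, 24.7% or 20.2% of unigenes were at least 20-fold lower in leaf. The share at least 20-fold higher in leaf hardly moved, at 42.8% or 43.3%. Whether the leaf library is from the same plant as the others was not tested. Ribulose-bisphosphate carboxylase, the carbon-fixing enzyme of green tissue, summed over its 9 annotated unigenes to 6026 FPKM (fragments per kilobase of contig, scaled to the depth of the library) in leaf, 967 FPKM in flower and between 11.6 and 42.7 FPKM in the other 3 libraries, so the summed level was highest in leaf. Of the 9 unigenes, 5 were highest in leaf, 2 in flower and 2 in secRoot: TR32787|c0_g1 had 3.56 FPKM in leaf and 955 in flower, nearly all of the flower sum, and TR44155|c0_g1 had no count in leaf.

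In FPKM, the 6 unigenes fell into 3 patterns. TR54322|c1_g1 (AACT), TR51183|c0_g1 (HMGS) and TR24831|c0_g2 were highest in rhizome_Y and low in flower, TR54322|c1_g2 (AACT) was highest in flower, and TR61952|c0_g1 (AACT) and TR59102|c0_g1 (HMGS) had nearly all of their counts in leaf. With TMM factors from all 5 libraries, the 4 unigenes of the other 2 patterns were all highest in rhizome_O. The patterns in FPKM are plotted library by library in the bar chart of FPKM.

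**Figure D1:**
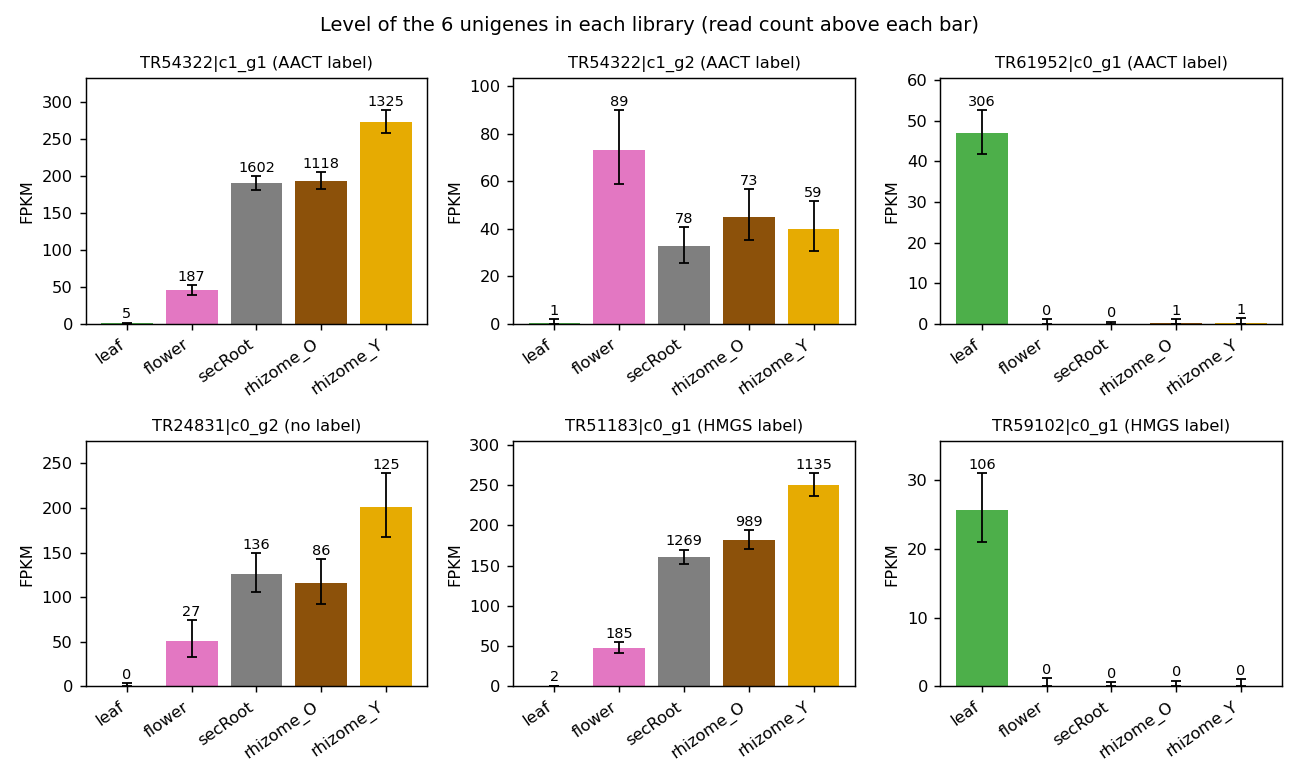
Level of each of the 6 unigenes (y axis, FPKM, a separate scale for each panel) in the 5 libraries (x axis), with bars for the deposited FPKM summed over contigs, error bars for the exact 95% Poisson interval of the count, and the count above each bar. TR54322|c1_g1, TR24831|c0_g2 and TR51183|c0_g1 peak in rhizome_Y, and TR54322|c1_g2 peaks in flower. TR61952|c0_g1 has nearly all of its counts in leaf (306), and TR59102|c0_g1 stands in leaf alone with 106 counts.

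TR54322|c1_g1 was the most abundant of the unigenes labelled AACT in secRoot, rhizome_O and rhizome_Y. Its single contig is 1856 bp long. It had 5 counts in leaf, 187 in flower, 1602 in secRoot, 1118 in rhizome_O and 1325 in rhizome_Y. Per length and depth these were 0.63 FPKM in leaf, 45.5 in flower, 191 in secRoot, 194 in rhizome_O and 274 in rhizome_Y. The young rhizome was therefore highest, and flower stood well below the 3 underground libraries. Relative to rhizome_Y, the level was 0.708 in rhizome_O (0.653 to 0.767), 0.697 in secRoot (0.648 to 0.750) and 0.166 in flower (0.142 to 0.194). The levels in secRoot and rhizome_O, the neighbours in this order, had a ratio of 0.985 with an interval of 0.912 to 1.06, so they did not differ beyond counting error. In leaf the level was 0.00230 of that in rhizome_Y (0.000747 to 0.00539) in FPKM, from 5 counts, 0.103 with TMM factors from all 5 libraries and 0.186 with median-of-ratios scaling.

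TR51183|c0_g1, the HMGS unigene of the underground tissues, followed the same order. Its single contig is 1750 bp long and had 2 counts in leaf, 185 in flower, 1269 in secRoot, 989 in rhizome_O and 1135 in rhizome_Y. The levels were 0.27 FPKM in leaf, 48.0 in flower, 161 in secRoot, 183 in rhizome_O and 250 in rhizome_Y. The next of the HMGS unigenes in level was TR59102|c0_g1, with 25.6 FPKM in leaf. Relative to rhizome_Y, the level was 0.731 in rhizome_O (0.670 to 0.796), 0.645 in secRoot (0.595 to 0.699) and 0.192 in flower (0.164 to 0.225). In FPKM secRoot was here below rhizome_O by more than counting error, with a ratio of 0.882 (0.811 to 0.960). This depended on the measure. With TMM factors from the 4 libraries other than leaf, flower was 0.263 of rhizome_O and 0.273 of secRoot, so these underground levels were closer. Over all unigenes annotated as HMGS, secRoot over rhizome_O was 1.03 (0.946 to 1.12). The leaf level was 0.00108 of that in rhizome_Y (0.000131 to 0.00391) in FPKM, from 2 counts, 0.0483 with TMM factors from all 5 libraries and 0.0873 with median-of-ratios scaling.

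The levels of these unigenes of consecutive steps were close to each other in each library outside leaf. The ratio of TR54322|c1_g1 to TR51183|c0_g1 was 0.948 in flower (0.770 to 1.17), 1.18 in secRoot (1.10 to 1.28), 1.06 in rhizome_O (0.972 to 1.16) and 1.09 in rhizome_Y (1.01 to 1.19). It was thus between 0.948 and 1.18 in 4 libraries over which TR54322|c1_g1 spanned 6.01-fold and TR51183|c0_g1 5.20-fold. In leaf, with 5 and 2 counts, the interval ran from 0.382 to 24.5 and nothing can be read from it.

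TR54322|c1_g2 has the same Trinity component number as TR54322|c1_g1 and carries the same label, but had another pattern. Its levels were 0.36 FPKM in leaf from 1 count, 73.1 in flower from 89 counts, 32.6 in secRoot from 78 counts, 45.0 in rhizome_O from 73 counts and 40.1 in rhizome_Y from 59 counts. In FPKM flower was highest, at 1.82 times rhizome_Y (1.30 to 2.58), 1.62 times rhizome_O (1.18 to 2.25) and 2.24 times secRoot (1.63 to 3.08). With TMM factors from all 5 libraries flower was 1.01 times rhizome_Y and rhizome_O was highest, at 7.40 times rhizome_Y, while with TMM factors from the 4 libraries other than leaf flower was highest again, at 1.66 times rhizome_Y. Among the 3 underground libraries all the intervals held 1: the ratio to rhizome_Y was 1.12 in rhizome_O (0.785 to 1.61) and 0.814 in secRoot (0.573 to 1.16), and secRoot over rhizome_O was 0.725 (0.520 to 1.01). In flower TR54322|c1_g1 lay below TR54322|c1_g2, at 0.623 of its level (0.482 to 0.811), while it was 5.85 times as high in secRoot (4.66 to 7.44), 4.30 times in rhizome_O (3.39 to 5.53) and 6.82 times in rhizome_Y (5.26 to 9.01). The order of these AACT unigenes in flower depended on the measure. The ratio of TR54322|c1_g1 to TR54322|c1_g2 there was 1.04 with the most abundant contig of each, from 187 and 64 counts. It was 2.10 by counts scaled to depth alone, which take no account of contig length. Underground these ratios were 8.66 to 11.2 and 15.3 to 22.5. No interval was made for them, and 1.04 is too near 1 to give an order.

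The unigene TR54322|c1_g2 is the sum of a contig of 757 bp and one of 501 bp, which are shorter than the contig of TR54322|c1_g1. The longer of them took 64 of 89 counts in flower, or 71.9% (Wilson 95% interval 61.8 to 80.2), 51 of 78 in secRoot, or 65.4% (54.3 to 75.0), 46 of 73 in rhizome_O, or 63.0% (51.5 to 73.2), and 45 of 59 in rhizome_Y, or 76.3% (64.0 to 85.3). These intervals overlapped throughout. Reads that fit both contigs could have been divided between them, and the intervals do not cover this division. A change in the use of the contigs between tissues was therefore not tested. Another annotated unigene, TR54322|c0_g1 (877 bp), shares the number TR54322 but is of another component (c0). It was also highest in flower, with 0.89 FPKM in leaf, 56.5 in flower, 22.1 in secRoot, 34.1 in rhizome_O and 24.7 in rhizome_Y. Its ratio of flower to rhizome_Y was 2.29 (1.62 to 3.27). Whether the 3 TR54322 unigenes are parts of 1 gene, alleles or separate genes was not tested, and reads shared by near-identical copies could have been divided among them by the counting.

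TR61952|c0_g1 is the third unigene labelled AACT, with 4 contigs of 1531 to 1595 bp. It had 306 counts in leaf, 0 in flower, 0 in secRoot, 1 in rhizome_O and 1 in rhizome_Y, which gave 46.9 FPKM in leaf and at most 0.26 FPKM elsewhere. Leaf over rhizome_Y was 180, with a counting interval of 32.1 to 7151 that the single count leaves wide. Against the level that 3 counts would have given, leaf was at least 54.4-fold higher than flower and at least 111-fold higher than secRoot. The counting gave the 4 contigs similar parts of the leaf counts, 74, 71, 93 and 68, the highest share being 30.4% (25.5 to 35.8). Reads that fit more than 1 contig could have been divided among them. The interval does not cover this division, so whether a single contig carried the unigene was not tested.

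TR59102|c0_g1, the second HMGS unigene, had 106 counts in leaf and none in the other 4 libraries. Its level in leaf was 25.6 FPKM (21.0 to 31.0), of which the contig of 1419 bp took 90 counts and a contig of 486 bp took 16. Leaf was at least 26.1-fold higher than flower, 53.4-fold higher than secRoot, 36.7-fold higher than rhizome_O and 30.8-fold higher than rhizome_Y, each against the level of 3 counts. Of the 5 unigenes with at least 100 counts in a library, TR61952|c0_g1 and TR59102|c0_g1 were the 2 at least 20-fold higher in leaf than in the mean of the others, and TR54322|c1_g1, TR51183|c0_g1 and TR24831|c0_g2 the 3 at least 20-fold lower, in FPKM. With TMM factors from all 5 libraries TR54322|c1_g1 was 16.1-fold lower and no longer past this limit, and with median-of-ratios scaling TR54322|c1_g1 was 3.47-fold and TR51183|c0_g1 7.36-fold lower. With 42.2% and 56.1% of all unigenes past these limits, the 2 of 5 and 3 of 5 counted here were near the background, and a unigene found almost only in leaf, or almost only outside it, was the usual case in these libraries. TR61952|c0_g1 and TR59102|c0_g1 reached the minimum of 100 counts through leaf alone, and the other 3 only through libraries other than leaf. Their directions were thus partly built into the selection, and the counts of 2 and 3 carry no support of their own.

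TR24831|c0_g2, a contig of 368 bp, had 0 counts in leaf, 27 in flower, 136 in secRoot, 86 in rhizome_O and 125 in rhizome_Y. Its levels were 50.9 FPKM in flower, 126 in secRoot, 116 in rhizome_O and 201 in rhizome_Y. Rhizome_Y was again highest and flower low, with ratios to rhizome_Y of 0.576 in rhizome_O (0.433 to 0.764), 0.627 in secRoot (0.488 to 0.806) and 0.253 in flower (0.161 to 0.386), while secRoot and rhizome_O did not differ beyond counting error (1.09, 0.825 to 1.44). Leaf was at least 67.7-fold lower than rhizome_Y, taking 3 counts for the 0. The deposited values thus put TR24831|c0_g2 and TR61952|c0_g1, which share a name in the study's list, at opposite ends: TR24831|c0_g2 had no count in leaf, and TR61952|c0_g1 had 2 counts outside it.

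TR24831|c0_g2 is 1 of 3 annotated AACT unigenes of the same component, all 368 bp long. TR24831|c0_g1 had 26.4 FPKM in flower, 90.8 in secRoot, 116 in rhizome_O and 148 in rhizome_Y, and TR24831|c0_g3 had 18.9, 84.3, 53.8 and 125 FPKM in the same libraries. None had a count in leaf, and each was highest in rhizome_Y. TR24831|c0_g1 and TR24831|c0_g2 had the same count in rhizome_O, 86, but differed in the other 3 libraries in which they had counts. Summed, the 3 had 96.1 FPKM in flower, 301 in secRoot, 285 in rhizome_O and 474 in rhizome_Y. Because an FPKM is per length, 3 short pieces with few counts weigh as much here as a long contig with many: in rhizome_Y the 3 had 295 counts, against 1325 for TR54322|c1_g1.

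**Figure D2:**
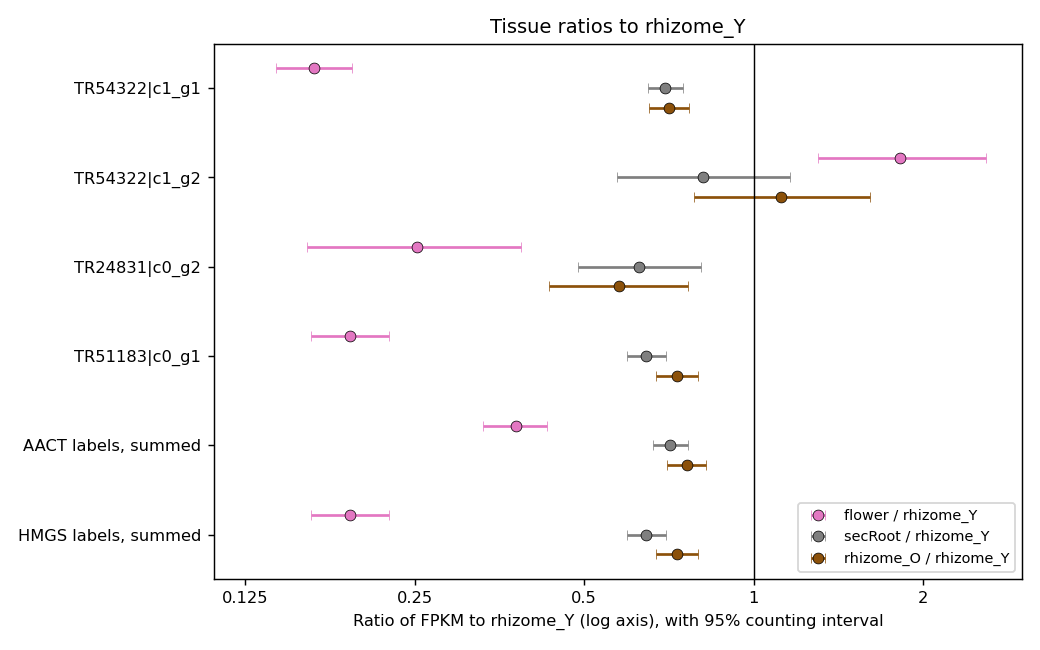
Ratios of FPKM to rhizome_Y (x axis, log scale; the line marks equal levels) for 4 unigenes with counts outside leaf and for the labelled AACT and HMGS unigenes summed, with points for flower, secRoot and rhizome_O and bars for the exact conditional 95% interval of the counts. All points of TR54322|c1_g1, TR24831|c0_g2 and TR51183|c0_g1 lie below 1, and TR54322|c1_g2 lies at 1.82 in flower.

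The ratios were then set against all unigenes measured at like depth, those with at least 100 counts in at least 1 of the libraries compared. Only TR54322|c1_g1, TR51183|c0_g1 and TR24831|c0_g2 reached this minimum outside leaf. Between rhizome_O and rhizome_Y, 0 of these 3 were at least 2-fold lower, against 421 of 6986 unigenes (6.03%). Between secRoot and rhizome_Y, 0 of 3 were at least 2-fold lower, against 572 of 8642 (6.62%). Between flower and rhizome_Y, all 3 were at least 2-fold lower, against 1170 of 6566 (17.8%), and 0 of 3 were at least 2-fold higher, against 1059 (16.1%). TR24831|c0_g2 reached the minimum through rhizome_Y alone in the comparisons with flower and rhizome_O, so a lower value there was partly built into its selection, whereas TR54322|c1_g1 and TR51183|c0_g1 passed in each library other than leaf.

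The median ratio of the 3 unigenes was 0.708 for rhizome_O over rhizome_Y, beside 1.05 for all unigenes tested, with 0.1 added to each FPKM. It was 0.645 for secRoot over rhizome_Y, beside 1.06, and 0.193 for flower over rhizome_Y, beside 0.939. The changes underground were thus below 2-fold in each of the 3, and the change in flower was larger. The direction between rhizome_O and rhizome_Y turned under 1 scaling, TMM factors from all 5 libraries, with which the ratio became 4.66 for TR54322|c1_g1, 4.82 for TR51183|c0_g1 and 3.80 for TR24831|c0_g2, a scaling that moved every unigene by a log2 shift of 2.72. With TMM factors from the 4 other libraries the shift was -0.13, and the ratios were 0.645 for TR54322|c1_g1 and 0.666 for TR51183|c0_g1.

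Added up by enzyme, the labelled AACT unigenes had 47.9 FPKM in leaf (42.7 to 53.5), 119 in flower (105 to 133), 223 in secRoot (213 to 234), 239 in rhizome_O (225 to 253) and 314 in rhizome_Y (298 to 331). The labelled HMGS unigenes had 25.9 FPKM in leaf (21.3 to 31.3), 48.0 in flower (41.4 to 55.5), 161 in secRoot (152 to 170), 183 in rhizome_O (171 to 194) and 250 in rhizome_Y (236 to 265). In FPKM both sums were highest in rhizome_Y. The AACT sum relative to rhizome_Y was 0.761 in rhizome_O (0.703 to 0.822), 0.711 in secRoot (0.662 to 0.764), 0.378 in flower (0.331 to 0.430) and 0.153 in leaf (0.135 to 0.173). For HMGS, the leaf level was 0.104 of that in rhizome_Y (0.0843 to 0.126), and the other ratios were those of TR51183|c0_g1, which made up the whole sum outside leaf. The leaf sum was of different unigenes than the sum of the other tissues: TR61952|c0_g1 gave 97.9% of the AACT FPKM in leaf and at most 0.0880% elsewhere, and TR59102|c0_g1 gave 99.0% of the HMGS FPKM in leaf and 0 elsewhere. With median-of-ratios scaling over the 5 libraries the ratio of leaf to rhizome_Y turned round, to 12.3 for AACT and 8.38 for HMGS, so no direction between leaf and the other tissues can be read from these sums.

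Without the leaf library, the AACT sum changed its make-up mainly in flower. TR54322|c1_g2 took 61.6% of the AACT FPKM in flower, 14.6% in secRoot, 18.8% in rhizome_O and 12.8% in rhizome_Y. By counts, which take no account of the shorter contigs, its share was 32.2% in flower (27.0 to 38.0), 4.64% in secRoot (3.74 to 5.76), 6.12% in rhizome_O (4.90 to 7.63) and 4.26% in rhizome_Y (3.32 to 5.46). By counts, the share in flower was above the other 3 by more than counting error. No interval was made for the shares of FPKM.

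The AACT level in FPKM exceeded the HMGS level in each library. The ratio of the labelled sums was 1.85 in leaf (1.48 to 2.32), 2.47 in flower (2.04 to 2.99), 1.4 in secRoot (1.29 to 1.49), 1.31 in rhizome_O (1.20 to 1.42) and 1.26 in rhizome_Y (1.16 to 1.36). The 3 underground intervals overlapped one another, and the flower interval lay above them but overlapped that of leaf. By counts scaled to depth alone, the ratio was 2.89 in leaf and 1.49 in flower, and with counts thinned to the flower total it was 2.54 in leaf, so the tissue with the highest ratio depended on the measure. The comparison between enzymes depended on the unigenes counted as AACT: with TR24831|c0_g2 added, the ratio was 3.53 in flower, 2.17 in secRoot, 1.94 in rhizome_O and 2.06 in rhizome_Y. With all annotated unigenes of each enzyme it was 1.52 in leaf, 2.81 in flower, 2.36 in secRoot, 2.44 in rhizome_O and 2.64 in rhizome_Y, and flower no longer stood apart from rhizome_Y. In leaf the value was 0.982 when only the most abundant contig of each unigene was taken, since TR61952|c0_g1 is divided among 4 contigs.

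**Figure D3:**
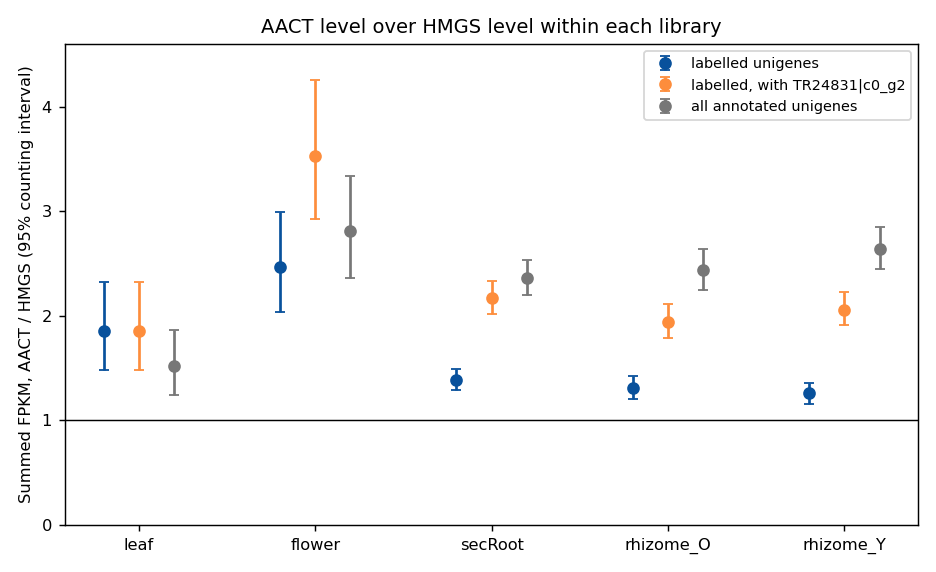
Summed FPKM of AACT over that of HMGS (y axis) within each library (x axis), with points for the labelled unigenes, for the labelled unigenes with TR24831|c0_g2 and for all annotated unigenes, and bars for the exact conditional 95% interval of the summed counts. Labelled unigenes give 2.47 in flower and 1.26 to 1.4 underground, and all annotated unigenes give 2.36 to 2.81 in flower and underground.

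The study's annotation lists 14 unigenes under AACT and 17 under HMGS, of which 13 and 15 had any count. Of the 13 AACT unigenes, 5 were highest in leaf, 2 in flower, 2 in secRoot and 4 in rhizome_Y. Of the 133897 unigenes with any count, 40.0% were highest in leaf, 20.8% in flower, 13.6% in secRoot, 14.2% in rhizome_O and 11.3% in rhizome_Y. With at least 20 counts in all, 7 AACT unigenes were left, 1 highest in leaf, 2 in flower and 4 in rhizome_Y. Of the 47667 unigenes at this minimum, 36.9% were highest in leaf, 22.1% in flower, 14.9% in secRoot, 15.0% in rhizome_O and 11.1% in rhizome_Y. The 7 AACT unigenes are those described above, TR61952|c0_g1, the flower-high TR54322|c1_g2 and TR54322|c0_g1, and TR54322|c1_g1 with the 3 of TR24831. The other AACT unigenes with any count had between 3 and 9 counts and were found in 1 tissue each.

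Of the 15 HMGS unigenes, 3 were highest in leaf, 4 in flower, 3 in secRoot, 3 in rhizome_O and 2 in rhizome_Y. Of all unigenes with any count, 40.0%, 20.8%, 13.6%, 14.2% and 11.3% were highest in these libraries, in the same order. Only 3 of the 15 had at least 20 counts in all. Besides TR51183|c0_g1 and TR59102|c0_g1 this was TR27674|c0_g1, a contig of 349 bp with 23 counts in leaf (24.9 FPKM) and 0 in the other libraries. Of the 17 HMGS unigenes 15 were shorter than 500 bp, and of the 14 AACT unigenes 10 were. Among the HMGS unigenes under 20 counts, TR27174|c0_g1 and TR27174|c1_g1 were the highest, with 19.7 and 19.2 FPKM in secRoot from 17 and 15 counts in all.

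**Figure D4:**
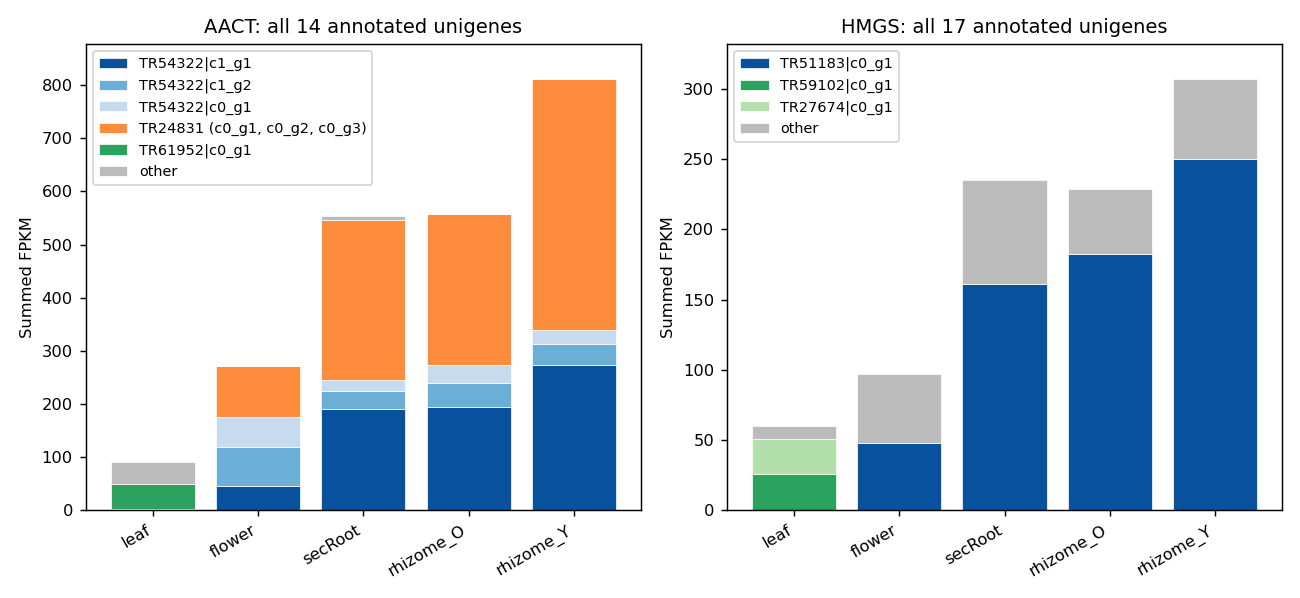
Summed FPKM (y axis) of all annotated AACT unigenes (left) and HMGS unigenes (right) in the 5 libraries (x axis), stacked by unigene, with the 3 TR24831 unigenes as 1 block and the low-count unigenes as other. The AACT stack reaches 813 FPKM in rhizome_Y, of which the TR24831 block is 474, and the leaf stacks are made of TR61952|c0_g1, TR59102|c0_g1 and TR27674|c0_g1 with low-count unigenes.

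Summed over all annotated unigenes, AACT had 90.8 FPKM in leaf, 271 in flower, 554 in secRoot, 558 in rhizome_O and 813 in rhizome_Y. HMGS had 59.8 FPKM in leaf, 96.7 in flower, 235 in secRoot, 229 in rhizome_O and 307 in rhizome_Y. In FPKM both were highest in rhizome_Y. The intervals of these sums are too narrow, since they give every count the same weight: for HMGS in flower the relative standard error was 7.12% with equal weights and 15.4% with each contig's counts at their own FPKM. For the labelled AACT unigenes in flower these errors were 6.02% and 7.32%.

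HMG-CoA lyase, which cleaves HMG-CoA, had 3 annotated unigenes, 1 of them in leaf alone. Of all unigenes with at least 20 counts, 36.9% were highest in leaf, so 1 of 3 was near the background. TR66282|c0_g1 had 273 counts in leaf (43.9 FPKM) and 0 in the other 4 libraries. TR65652|c1_g4 had 0.13 FPKM in leaf, 40.1 in flower, 39.8 in secRoot, 53.4 in rhizome_O and 41.2 in rhizome_Y, and its ratio of flower to rhizome_Y was 0.974 (0.765 to 1.24). TR62478|c0_g1 had 0 FPKM in leaf, 32.1 in flower, 18.9 in secRoot, 9.47 in rhizome_O and 13.9 in rhizome_Y, with flower at 2.31 times rhizome_Y (1.61 to 3.37). TR65652|c1_g4 and TR62478|c0_g1 were thus not below rhizome_Y in flower beyond counting error. Over all annotated unigenes, the lyase sum of 55.1 FPKM in rhizome_Y was below the 307 FPKM of HMGS there. Whether the lyase acts on the HMG-CoA that HMGS makes was not tested.

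The later steps of the pathway, from HMGR to isopentenyl-diphosphate isomerase (IPI), were labelled on 11 backbone unigenes. In FPKM, 8 of these were highest in flower, 1 in rhizome_O and 2 in rhizome_Y, where 22.1%, 15.0% and 11.1% of all unigenes with at least 20 counts were. With TMM factors from all 5 libraries, 11 of 11 were highest in rhizome_O. In FPKM all 11, like 56.1% of the unigenes measured at depth, were at least 20-fold lower in leaf than in the mean of the other tissues, and with median-of-ratios scaling 5 were. Their sum was 3.01 FPKM in leaf from 14 counts, 666 in flower, 418 in secRoot, 482 in rhizome_O and 570 in rhizome_Y. Flower over rhizome_Y was thus 1.17 for the later steps (1.09 to 1.25), while it was 0.378 for AACT and 0.192 for HMGS, and the intervals did not overlap. With TMM factors from all 5 libraries it was 0.650 for the later steps, 0.210 for AACT and 0.107 for HMGS.

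By enzyme, the later steps differed in flower. TR68099|c2_g1 (HMGR, the reductase that forms mevalonate) had 113 FPKM in flower, against 38.0 in rhizome_Y, a ratio of 2.99 (2.53 to 3.54). TR70123|c0_g1 (labelled HMGR1) had 13.5 FPKM in flower, against 5.38 in rhizome_Y, from 17 and 8 counts (ratio 2.50, 1.02 to 6.70), and TR57974|c2_g2, also labelled HMGR1, had 7.88 FPKM in flower, against 13.4 in rhizome_Y, from 18 and 36 counts (ratio 0.589, 0.315 to 1.07). For TR60355|c0_g1 (mevalonate kinase, MK, which adds the first phosphate), flower over rhizome_Y was 0.353 (0.239 to 0.510). It was 1.19 for TR68600|c4_g3 (phosphomevalonate kinase, PMK), with an interval of 0.792 to 1.79 that held 1. It was 0.325 for TR63099|c0_g1 (mevalonate diphosphate decarboxylase, MDD, which makes isopentenyl diphosphate), with an interval of 0.267 to 0.393. TR61651|c0_g1 (IPI, which converts isopentenyl diphosphate to its isomer) had the highest level of the list, 229 FPKM in flower, against 189 in rhizome_Y (ratio 1.21, 1.07 to 1.38). In FPKM the MK and MDD unigenes were therefore lower in flower than in rhizome_Y, like TR54322|c1_g1 and TR51183|c0_g1, and TR68099|c2_g1 and TR61651|c0_g1 were higher.

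Likeness of pattern was measured by the Euclidean distance between the shares of the summed FPKM that fall to each of the 5 tissues. TR54322|c1_g1 had 0.0895% of its FPKM in leaf, 6.47% in flower, 27.1% in secRoot, 27.5% in rhizome_O and 38.9% in rhizome_Y. TR51183|c0_g1 had 0.0421% in leaf, 7.48% in flower, 25.1% in secRoot, 28.4% in rhizome_O and 38.9% in rhizome_Y. Their distance was 0.0243, and of 16351 other unigenes with at least 100 counts in a library, 0 were nearer to TR54322|c1_g1 and 1 was nearer to TR51183|c0_g1. Without the leaf library these numbers were again 0 and 1, of 13764 unigenes, and by Pearson's r of log2(FPKM + 1) they were 8 and 9, with r = 0.9990 over the 5 libraries. These are descriptions over 5 points that share depth and the low leaf value, and carry no test.

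**Figure D5:**
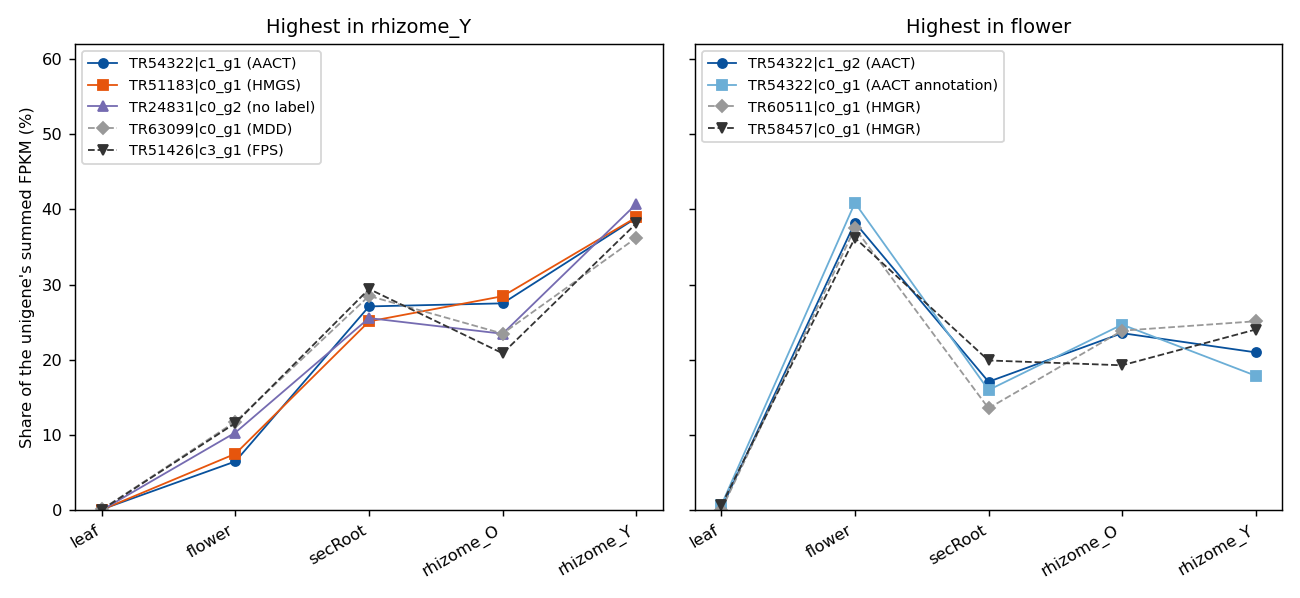
Share of the summed FPKM of a unigene (y axis, percent) that falls to each library (x axis), for the unigenes highest in rhizome_Y (left) and in flower (right), with solid lines for AACT and HMGS unigenes and TR24831|c0_g2, and dashed lines for their nearest labelled backbone unigenes; lines only join the points of a unigene. TR54322|c1_g1 and TR51183|c0_g1 both have 38.9% in rhizome_Y, and TR54322|c1_g2 has 38.2% in flower.

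Among the backbone unigenes and the unlabelled TR24831|c0_g2, the next nearest to both was TR24831|c0_g2, at 0.0608 from TR54322|c1_g1 and 0.0603 from TR51183|c0_g1, with 32 and 30 of the 16351 unigenes nearer. The nearest to TR24831|c0_g2 itself were TR51426|c3_g1 (farnesyl diphosphate synthase, FPS, which builds the precursor of squalene) at 0.0548 and TR63099|c0_g1 (MDD) at 0.0557. For TR54322|c1_g2 the nearest were both HMGR, TR60511|c0_g1 at 0.0550 and TR58457|c0_g1 at 0.0632, with 190 and 277 of 16352 unigenes nearer. TR60511|c0_g1 had 104 FPKM in flower, against 69.5 in rhizome_Y, a ratio of 1.49 (1.26 to 1.78), and TR58457|c0_g1 had 41.1 in flower, against 27.3 in rhizome_Y, a ratio of 1.51 (1.02 to 2.25). The annotated TR54322|c0_g1 was nearer still to TR54322|c1_g2, at 0.0439, and at 0.419 from TR54322|c1_g1.

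For the leaf unigenes, likeness says little. TR61952|c0_g1 and TR59102|c0_g1 were 0.0122 apart, but 3295 of 16351 unigenes were nearer to TR61952|c0_g1 and 4773 nearer to TR59102|c0_g1, and 42.2% of the unigenes measured were at least 20-fold higher in leaf. The next labelled backbone unigene, TR57974|c2_g2 (HMGR1), was at 1.11 from TR61952|c0_g1 and 1.12 from TR59102|c0_g1. In leaf itself, the level of TR61952|c0_g1 was 1.83 times that of TR59102|c0_g1 (1.46 to 2.3).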

How the data were processed

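RNA from 5 tissues of 1 plant was sequenced as strand-specific poly(A) libraries, 1 per tissue. The authors trimmed the reads (Trimmomatic), pooled them for a Trinity assembly, aligned them by Bowtie and took abundances from RSEM. The sources used here give no version of Trimmomatic or RSEM. For each contig, the expected counts that the authors deposited were whole numbers. The deposited FPKM are counts that the authors divided by effective contig length and depth, and the deposited TPM are the same levels that the authors rescaled to a fixed sum. The deposited percent values give the part of each contig in its unigene. A second table of FPKM (5 columns) was not used.

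Contigs were summed by Trinity gene identifier. Intervals are exact 95% Poisson intervals of counts, exact conditional intervals of count ratios scaled to the FPKM ratio, and Wilson intervals of shares; they cover counting error only. A count of 0 was taken as 3 counts for bounds. Background counts used a minimum of 100 counts, and medians of ratios 0.1 added to FPKM. With 1 library per tissue no test was made. Named unigenes were the 6 described, of each annotated list the 5 with the highest FPKM and those at least 20-fold higher in leaf with at least 20 counts, the 2 nearest labelled unigenes of each of the 6, and the highest of each later step; TR54322|c0_g1, TR57974|c2_g2, TR32787|c0_g1 and TR44155|c0_g1 were named after their values were seen. Members and lists were chosen with earlier results of these data known. The lists come from the study's annotation and heat map labels. Intervals and fold calls were tested on simulated counts with known changes, as a check of the calculation. Alternatives were TPM, TMM (edgeR 4.0.16 in R 4.3.3) and median-of-ratios scaling, CPM, single contigs, other members, thinned counts and other minimums. Python 3.11.15, scipy 1.17.1 and pandas 2.3.3 were used.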

Additional observations from a re-analysis of the deposited data

How the results depend on the processing

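The depth limits the leaf values of TR54322|c1_g1, TR54322|c1_g2 and TR51183|c0_g1 (5, 1 and 2 counts), and nothing here measures variation between plants. Of 146 alternative values of the enzyme sums, ratios, background shares and lists, 95 stayed within the counting interval or within 1.5 times, and of 125 for single unigenes 105 did. Some of these values could not have moved. TPM leaves a ratio within a library as it was, and TR24831|c0_g2 adds no count in leaf. For a unigene of a single contig, taking the most abundant contig changes nothing. These tallies are therefore not a measure of stability. No paired analysis was possible because each tissue has 1 library.

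TMM factors from all 5 libraries ran from 0.065 in leaf to 5.226 in flower. With them the ratio to rhizome_Y reversed in rhizome_O, to 5.01 for AACT and 4.82 for HMGS (TR54322|c1_g1 4.66, TR51183|c0_g1 4.82, TR24831|c0_g2 3.80), and in leaf, to 6.82 for AACT and 4.63 for HMGS. In secRoot it was 0.900 for AACT and 0.816 for HMGS, and in flower 0.210 and 0.107. The share of all unigenes at least 2-fold lower than rhizome_Y became 0.458% in rhizome_O, 4.27% in secRoot and 46.8% in flower, that 2-fold higher in flower 9.32%, and that 20-fold lower in leaf 24.7%. TMM from the 4 libraries other than leaf, chosen after seeing the data, gave 0.693 for AACT and 0.666 for HMGS in rhizome_O. Median-of-ratios scaling reversed leaf over rhizome_Y, to 12.3 for AACT and 8.38 for HMGS, with 20.2% of unigenes 20-fold lower in leaf.

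Leaf over rhizome_Y was 0.120 for AACT and 0.0818 for HMGS in TPM, 0.0585 for HMGS in CPM, 0.0512 and 0.0626 with the most abundant contig, and 0.0830 for HMGS in thinned counts. Flower over rhizome_Y for AACT was 0.235 in CPM and 0.298 with the most abundant contig. With TR24831|c0_g2, AACT over rhizome_Y was 0.689 in rhizome_O, 0.329 in flower and 0.0931 in leaf. With all annotated unigenes it was 0.687 in rhizome_O and 0.112 in leaf, and HMGS was 0.765 in secRoot, 0.314 in flower and 0.194 in leaf.

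AACT over HMGS was 2.89 in leaf and 1.49 in flower in CPM, and 2.54 in leaf in thinned counts. With the most abundant contig it was 1.86 in flower and 1.18 in rhizome_O, and fell below 1 in leaf (0.982), where TR61952|c0_g1 is divided among 4 contigs. With TR24831|c0_g2 it was 3.53 in flower, 2.17 in secRoot, 1.94 in rhizome_O and 2.06 in rhizome_Y, and with all annotated unigenes 2.36 in secRoot, 2.44 in rhizome_O and 2.64 in rhizome_Y. With at least 20 counts, 1 AACT unigene was highest in leaf and 1 HMGS unigene in rhizome_Y. By Pearson's r, 8 unigenes were nearer to TR54322|c1_g1 than TR51183|c0_g1 was, and 9 the other way round. Where no value above shows it, the cause was not tested.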
